A study of Mus musculus with 15 samples.

Results

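The metalloproteinase genes of 3 related families were followed across 4 groups of mouse endometrial epithelial organoids: the matrix metalloproteinases (MMP), the membrane-bound ADAM proteases and the secreted ADAMTS proteases. Every row of the expression matrix was taken whose mouse symbol is Mmp, Adam or Adamts followed by a digit, which gave 49 of 16729 rows (0.293%): 20 MMP, 17 ADAM and 12 ADAMTS genes. The choice used names only, no measured value. Of these, 26 had a mean of at least 10 normalized counts over the 15 libraries and were tested (10 MMP, 9 ADAM and 7 ADAMTS), and 23 lay below that level.

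Control organoids came from Smad2flox/flox; Smad3flox/flox mice, and Smad2/3 cKO organoids from mice that also carried Ltfcre/+, which expresses Cre recombinase from the lactoferrin gene and so deletes the floxed SMAD genes in uterine epithelium. Both were grown with DMSO as vehicle or with A83-01, an inhibitor of the TGFβ family type 1 receptors ALK4, ALK5 and ALK7. RNA was amplified with a low-input kit, and there were 3 libraries of control + vehicle and 4 of each other group (control + A83-01, Smad2/3 cKO + vehicle and Smad2/3 cKO + A83-01). All groups carried the floxed alleles, and ages are not given in the labels. Organoids of both genotypes were embedded in Matrigel, a basement membrane extract, so matrix proteins supplied from outside were present in every group. The labels give each library a mouse number, do not say that libraries of a group are separate cultures in any other way, and do not give the share of cells that carried the deletion. The p-values measure the spread between these libraries. Summed normalized counts per library were 20241771 to 24423127 over all groups.

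MMPs are zinc-dependent enzymes that cut extracellular matrix and cell surface proteins, most of them secreted as inactive precursors that another protease must open. ADAM proteases sit in the cell membrane and release the outer part of growth factors, receptors and adhesion proteins, while ADAMTS proteases bind the matrix and cut proteoglycans such as versican and aggrecan. TGFβ is a known regulator of many of these genes and of their inhibitors, and in the uterus metalloproteinases take part in tissue breakdown, repair and preparation for implantation.

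Whole-gene values of the floxed genes are given first. Smad2 measured 1335, 1132 and 1045 normalized counts in control + vehicle, 970.0, 1062, 984 and 912 in control + A83-01, 924, 863, 892 and 821 in Smad2/3 cKO + vehicle and 813, 1211, 854 and 804 in Smad2/3 cKO + A83-01. Smad3 measured 1532, 1741 and 1599 in control + vehicle, 669, 1556, 2003 and 1265 in control + A83-01, 1169.6, 1640.1, 1516 and 1977 in Smad2/3 cKO + vehicle and 1659, 797, 1689 and 1648 in Smad2/3 cKO + A83-01. Smad2 in the 4 Smad2/3 cKO + vehicle libraries lay below the 3 control + vehicle libraries, while Smad3 overlapped, and neither passed the thresholds (limma, adjusted p = 0.0651 for Smad2, with a log2 fold change of -0.41, and 0.828 for Smad3, with -0.066). A value for the whole gene does not isolate the deleted exons, so these values do not check the genotype. A normalized count is an estimated read count scaled so that libraries can be compared. A gene was called at a Benjamini-Hochberg adjusted p below 0.01 over all 13066 genes tested together with a fold change above 1.4 or below 0.714.

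Epithelial markers were abundant in every library. The 7 genes Epcam, Krt7, Krt8, Krt18, Krt19, Cdh1 and Muc1 summed to at least 130757 normalized counts, with Krt7 the highest of them in each library. The sums moved with the groups: in control organoids they ran from 253172 up to 324178 with vehicle and from 165432 up to 274504 with A83-01, and in Smad2/3 cKO organoids from 135101 up to 241687 and from 130757 up to 195914. Both cKO groups thus lay below control + vehicle. None of the 7 was called (limma), but with the deletion 4 had an unadjusted p below 0.05 and Krt8, Krt18 and Krt19 were lower without overlap (for Krt19, log2 fold change -1.85, adjusted p = 0.0124), and 6 of the 7 had a log2 fold change below 0. With A83-01 6 of the 7 were also below 0, 1 had an unadjusted p below 0.05 and Krt8 and Krt19 were lower without overlap (log2 fold change -0.65, adjusted p = 0.222 and -0.67, adjusted p = 0.267). Stromal markers (7 of 8 listed were in the matrix) summed to 112, 194 and 32.6 normalized counts in control organoids with vehicle and from 4.79 up to 54.7 with A83-01, and in Smad2/3 cKO organoids from 2.96 up to 43.9 and from 3.99 up to 129, with Col1a1 at 0 to 34.7 and Lum at 0 to 4.30 over the 15 libraries. None of the 3 tested was called, but with the deletion 2 were lower without overlap, Col1a2 (log2 fold change -3.70, adjusted p = 0.0387) and Pdgfra (-1.68, adjusted p = 0.163). With A83-01 the log2 fold change of Col1a2 was -3.25 (adjusted p = 0.155), and the groups overlapped. Endothelial Pecam1 and Cdh5 were each at 0 in some libraries and never above 5.75 and 27.6. Of smooth muscle markers, Acta2 was the most abundant in 14 of the 15 libraries, at 176, 101 and 53.6 in control + vehicle, 29.5, 10.8, 13.8 and 20.5 in control + A83-01, 4.74, 21.0, 9.44 and 12.01 in Smad2/3 cKO + vehicle and 43.5, 7.56, 4.48 and 12.8 in Smad2/3 cKO + A83-01. Acta2 was called lower in Smad2/3 cKO + vehicle than in control + vehicle (log2 fold change -3.12, SE 0.60, adjusted p = 0.00855), a call that held without Smad2/3 cKO + vehicle replicate 2 and was lost without any 1 of the other 6 libraries (adjusted p = 0.0108 to 0.0458). Leukocyte markers were uneven: Cd68 gave 1916, 1180.0 and 2474 in control + vehicle, 5018, 3024, 5162 and 8115 in control + A83-01, 1726, 3258, 5184 and 4083 in Smad2/3 cKO + vehicle and 4421, 3678, 7407 and 5487 in Smad2/3 cKO + A83-01, and Ptprc, which encodes CD45, was higher in the 4 Smad2/3 cKO + vehicle libraries (223, 309, 123 and 248) than in control + vehicle (12.5, 17.4 and 38.5; log2 fold change 3.33, SE 0.46, adjusted p = 0.00239), a call lost without control + vehicle replicate 1 or 2 (adjusted p = 0.0118 and 0.0139). With A83-01 Cd68 was higher without overlap, was not called between the groups (log2 fold change 1.499, SE 0.35, adjusted p = 0.0432) and was called with the mouse as a block (log2 fold change 1.27, adjusted p = 0.00691). Ptprc (log2 fold change 2.82 (adjusted p = 0.0241)) was also higher and Lyz2 (-2.72 (adjusted p = 0.0186)) lower without overlap there, without a call. The part of these markers, epithelial and stromal ones included, in the differences given below was not tested, and in whole cultures fewer cells of a type and less RNA per cell cannot be told apart.

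A single library carried metalloproteinase transcripts that the others lacked. Smad2/3 cKO + vehicle replicate 2 had 211 normalized counts of Mmp8, the collagenase of neutrophils, against 0 in the 14 other libraries. It had 634 of Mmp12, the elastase of macrophages, where the next library had 8.60, and 50.4 of Mmp9, a gelatinase, where the next had 6.62. Adam23 followed the same pattern, at 36.3 against 0.732. The same library held 351 counts of Adgre1, which encodes the macrophage marker F4/80, and 3372 of Lyz2, where the next highest libraries had 9.01 and 86.9. Ptprc, at 308.7 there, was higher in Smad2/3 cKO + A83-01 replicate 1 (513.5), and Cd68 was higher in 9 other libraries. Mmp8 and Mmp12 reached the mean needed for testing through this library, and Mmp9 and Adam23 did not reach it. Without it the count of genes called with the deletion was 3 (Adamts1, Mmp15 and Mmp7) in place of 6, while over all genes 654 were called (5.01%) in place of 958 (7.33%), and without it the adjusted p was 0.0162 for Mmp11, 0.0158 for Mmp14 and 0.0181 for Adamts9, with log2 fold changes of -3.42, -1.48 and 1.38. Its part in those differences was not tested beyond this omission. Its mouse number in the labels is also that of Smad2/3 cKO + A83-01 replicate 1, in which Mmp8 and Mmp12 were at 0.

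**Figure D1:**
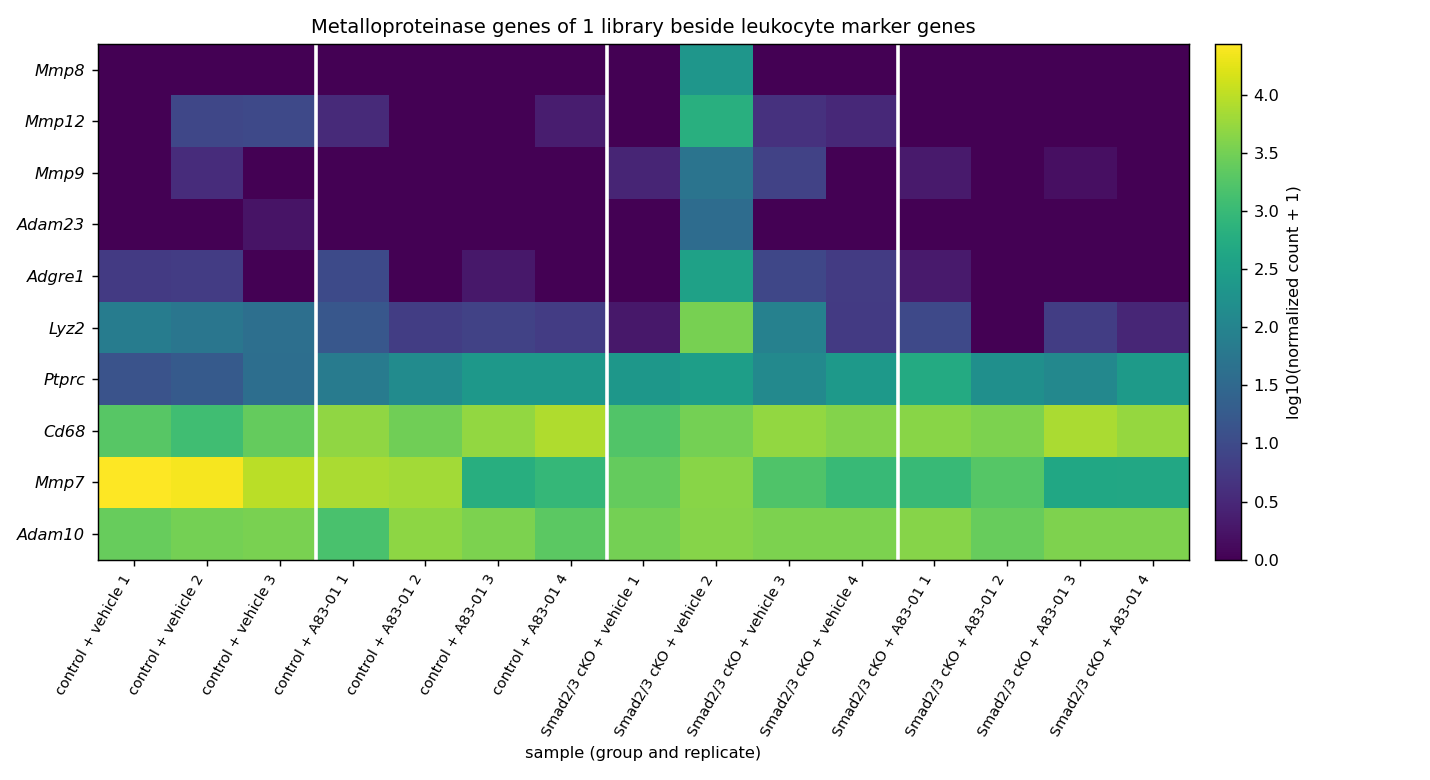
Log10 of the normalized count plus 1 (colour) of 6 metalloproteinase genes and 4 leukocyte marker genes (Adgre1, Lyz2, Ptprc and Cd68) in the 15 libraries. Mmp8, Mmp12, Mmp9, Adam23, Adgre1 and Lyz2 are bright in Smad2/3 cKO + vehicle replicate 2, while Ptprc and Cd68 are spread over many libraries.

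Levels between genes are compared per kb of transcript. By the mean over all 15 libraries the order was Mmp7 (matrilysin) at 5614 normalized counts per kb, Adam9 at 2268, Mmp14 at 825, Adam10 at 738, Mmp23 at 566, Adam17 at 488, Adamts1 at 458 and Adam15 at 412. Adamts4, Adamts9, Adam33 and Mmp15 followed between 398.5 and 323, and the gaps between these neighbours are smaller than the SD of each over the 15 libraries. Adam28 stood at 147 and Adam8 at 113, and the other 12 genes tested were at 64.7 per kb or lower. This order pools groups with different means. Mmp7 stood at 18990.2 per kb in control + vehicle, 3684 in control + A83-01, 2247 in Smad2/3 cKO + vehicle and 879 in Smad2/3 cKO + A83-01, where Adam9 stood at 2594, 2110.3, 2336 and 2112. The mean of Adam9 was thus above that of Mmp7 in both cKO groups. In Smad2/3 cKO + vehicle the gap was smaller than the SD of Mmp7 (1418 per kb, n = 4). Adam10, at 812 and 787 in these groups, was also above Mmp14, at 510.3 and 664.

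**Figure D2:**
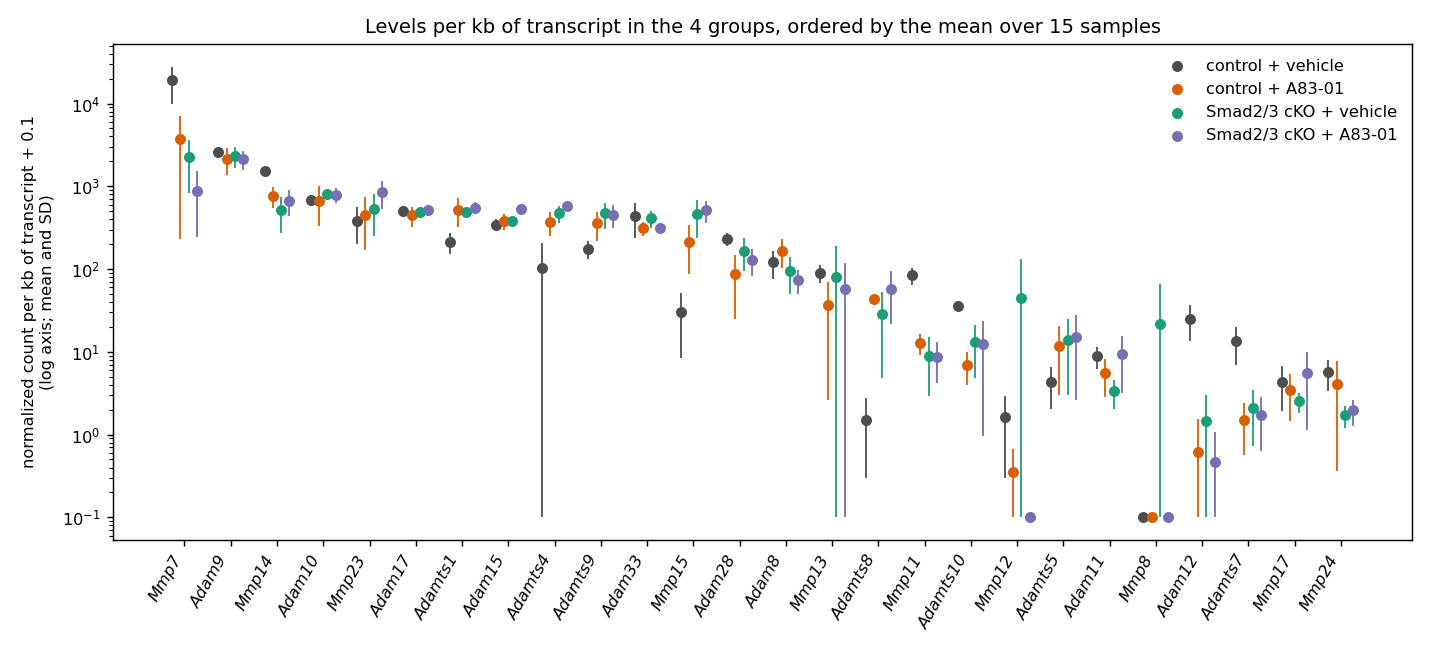
Level of the 26 metalloproteinase genes tested, as normalized counts per kb of transcript plus 0.1 on a log axis, in the 4 groups (points, group means; lines, SD, stopped at 0.1 where the SD exceeds the mean). Adam9, Adam10 and Adam17 lie at nearly one height in all groups, while Mmp7, Mmp11, Adam12 and Adamts7 are highest and Mmp15 and Adamts8 lowest in control + vehicle.

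Summed over the family, MMP transcripts took between 0.0754% and 0.143% of all normalized counts in control + vehicle. The share was between 0.0204% and 0.0451% in control + A83-01, between 0.0268% and 0.0382% in Smad2/3 cKO + vehicle and between 0.0254% and 0.0353% in Smad2/3 cKO + A83-01. ADAMTS transcripts took between 0.0111% and 0.0190% in control + vehicle, between 0.0161% and 0.0451% in control + A83-01, between 0.0325% and 0.0468% in Smad2/3 cKO + vehicle and between 0.0354% and 0.0474% in Smad2/3 cKO + A83-01. The MMP share of the 3 control + vehicle libraries lay above that of the 12 others, and the ADAMTS share lay below that of both Smad2/3 cKO groups. ADAM transcripts overlapped between all groups, at 0.0468% to 0.103% over the 15 libraries. Mmp7 alone made up 60.1% to 85.9% of the MMP sum in control + vehicle. Without Mmp7 the MMP sums overlapped, at 4517, 5043 and 6250 normalized counts in control + vehicle and 3248 to 6549 in the 12 other libraries, so the separation of the family sum rests on Mmp7.

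The MMP genes include a cluster: Mmp13, Mmp12, Mmp3, Mmp10, Mmp8, Mmp27, Mmp20 and Mmp7 lie in that order on chromosome 9 over 427 kb (chr9:7272514-7699585, GRCm38), all on the plus strand. Mmp7 occupies chr9:7692090-7699585 at the far end. Promoter windows of RefSeq (GRCm38.p6, 250 bases before to 50 after the start) were at hand for 29 of the 49 genes and 15 of the 26 tested. They were searched for TGANTCA, the letters bound by AP-1, which read the same on both strands, and for the SMAD palindrome GTCTAGAC. The AP-1 letters were present in the windows of 2425 of 27025 genes (8.97%), and in those of Mmp7, Mmp10, Mmp12, Mmp13, Mmp3, Mmp20 and Adam1b among the genes followed here. GTCTAGAC was in 0.248% of genes and in none of the windows of the metalloproteinase genes. A match describes letters only. The windows of Mmp7 and Mmp13 that hold the AP-1 letters are shown because they are the 2 best expressed of the 8 neighbours. Those of Mmp14 and Mmp15, membrane-anchored MMPs without these letters there, are shown because their transcripts were called in opposite directions. Mmp7 has 2 windows, of which the first holds the letters and is shown, and the second (chr9:7692091-7692390) does not hold them. Capitals mark TGANTCA, all 4 windows are on the plus strand, and the first base of the match lies at -63 in Mmp7 and -35 in Mmp13, counted with the start base as 0.
Mmp7, chr9:7691840-7692139: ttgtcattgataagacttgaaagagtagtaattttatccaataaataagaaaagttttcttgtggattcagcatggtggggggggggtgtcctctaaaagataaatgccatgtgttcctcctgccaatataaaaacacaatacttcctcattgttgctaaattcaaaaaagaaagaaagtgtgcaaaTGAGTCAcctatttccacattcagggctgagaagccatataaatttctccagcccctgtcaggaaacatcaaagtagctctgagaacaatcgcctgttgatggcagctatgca
Mmp13, chr9:7272264-7272563: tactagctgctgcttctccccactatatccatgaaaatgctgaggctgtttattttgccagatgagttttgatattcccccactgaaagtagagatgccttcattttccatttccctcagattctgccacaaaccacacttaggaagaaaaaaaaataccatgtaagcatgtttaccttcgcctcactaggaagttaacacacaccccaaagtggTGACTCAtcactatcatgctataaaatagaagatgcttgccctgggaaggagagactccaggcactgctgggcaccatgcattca
Mmp14, chr14:54431348-54431647: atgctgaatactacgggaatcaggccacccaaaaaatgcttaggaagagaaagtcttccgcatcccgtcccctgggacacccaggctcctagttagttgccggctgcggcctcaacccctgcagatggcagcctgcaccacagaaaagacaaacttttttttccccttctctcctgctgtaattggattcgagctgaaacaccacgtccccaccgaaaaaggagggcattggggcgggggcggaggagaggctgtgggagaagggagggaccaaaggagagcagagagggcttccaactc
Mmp15, chr8:95352046-95352345: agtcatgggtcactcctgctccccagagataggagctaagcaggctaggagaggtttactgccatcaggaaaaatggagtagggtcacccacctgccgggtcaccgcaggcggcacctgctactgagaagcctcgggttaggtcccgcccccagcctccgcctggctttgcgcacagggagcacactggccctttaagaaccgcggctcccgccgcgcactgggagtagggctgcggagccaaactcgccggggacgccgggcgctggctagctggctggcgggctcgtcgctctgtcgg

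The first comparison asked what receptor inhibition did to these genes in control organoids, and the second what deletion of Smad2 and Smad3 did without the inhibitor. In control organoids with A83-01, 3 of the 26 genes were called: Adamts8 rose, and Mmp11 and Adam12 fell. Of all genes tested, 1.97% were called in that comparison, 1.06% higher and 0.911% lower. In Smad2/3 cKO + vehicle, 6 of the 26 were called: Mmp15, Adamts1 and Adamts9 rose, and Mmp7, Mmp11 and Mmp14 fell. The share of all genes called there was 7.33%, of which 4.09% were higher and 3.25% lower. An unadjusted limma p below 0.05 was found for 13 of the 26 with A83-01 and 13 with the deletion, and the share of all genes at that level was not counted. Both comparisons use the same 3 control + vehicle libraries, so their values are set side by side and are not independent of each other. The median log2 fold change of the 26 genes was -0.37 with A83-01 and -0.11 with the deletion, beside -0.01 and 0.01 for all genes tested.

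**Figure D3:**
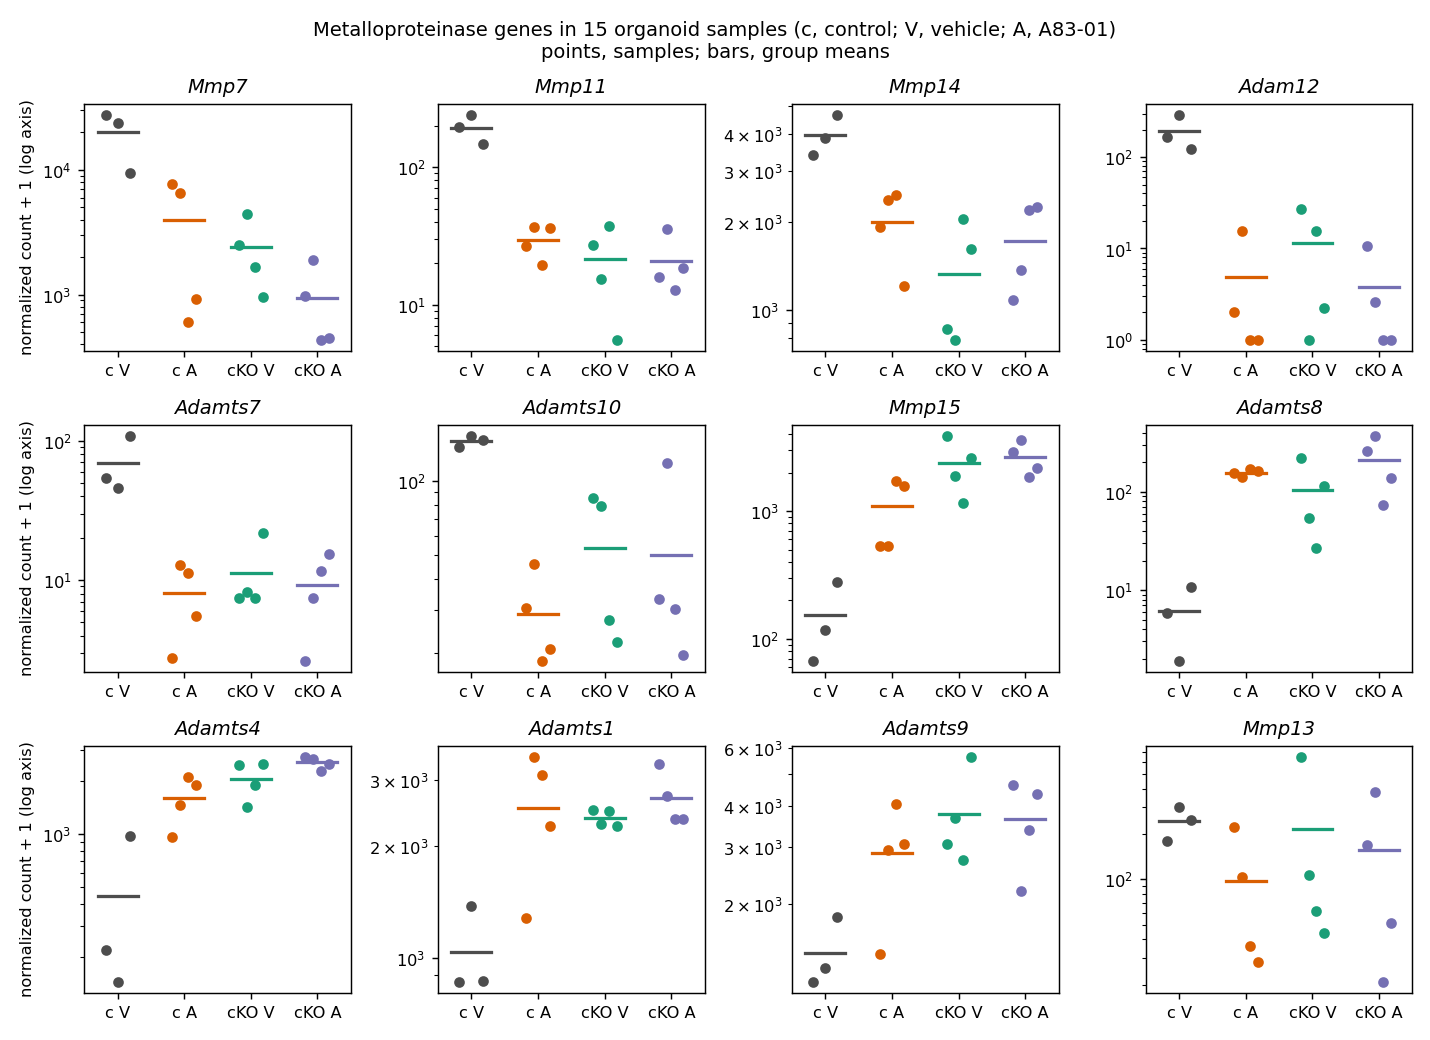
Normalized count plus 1 (log axes that differ between panels) of 12 metalloproteinase genes in each of the 15 libraries (points), with group means (bars). In Mmp7, Mmp11, Mmp14, Adam12 and Adamts7 the 3 control + vehicle libraries lie above the libraries of the other 3 groups, and in Mmp15, Adamts8 and Adamts4 at or near the bottom.

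Mmp7 encodes matrilysin, a small secreted enzyme made mainly by epithelia. It measured 27559, 23889 and 9397 normalized counts in control + vehicle and 7638, 6577, 605 and 918 in control + A83-01. In Smad2/3 cKO + vehicle the 4 libraries gave 2489.5, 4469, 1675 and 963, and in Smad2/3 cKO + A83-01 984, 1883, 435 and 452. All 12 libraries with the inhibitor, the deletion or both were below the lowest control + vehicle library. Mmp7 fell in Smad2/3 cKO + vehicle from 20282 ± 9604 (SD, n = 3) to 2399 ± 1514 (SD, n = 4), 8.45-fold (limma, log2 fold change -3.16, SE 0.52, adjusted p = 0.00464). The call was lost without control + vehicle replicate 1 or 2 (adjusted p = 0.0264 and 0.0247) or Smad2/3 cKO + vehicle replicate 1 or 3 (0.0119 and 0.0104). With A83-01 in control organoids Mmp7 was 5.15-fold lower by its means without passing the thresholds (log2 fold change -2.996, SE 0.93, adjusted p = 0.0999). The mouse numbers in the labels fall into a lower and a higher series: with A83-01 the control mice of the lower series (replicates 1 and 2) gave 7638 and 6577, and those of the higher series (replicates 3 and 4) 605 and 918. With the series as a covariate Mmp7 passed the threshold with A83-01 (log2 fold change -2.58, adjusted p = 0.00679).

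Mmp11 encodes stromelysin-3, which is activated inside the cell by furin. Its libraries measured 193, 238 and 147 in control + vehicle, 25.6, 35.6, 18.5 and 35.2 in control + A83-01, 26.2, 14.3, 36.4 and 4.57 in Smad2/3 cKO + vehicle and 14.8, 34.8, 11.7 and 17.5 in Smad2/3 cKO + A83-01. All 3 control + vehicle libraries were above the 12 others, which overlap each other. Mmp11 fell with A83-01 from 193 ± 45.6 (SD, n = 3) to 28.7 ± 8.27 (SD, n = 4; limma, log2 fold change -2.73, SE 0.37, adjusted p = 0.00555). It also fell in Smad2/3 cKO + vehicle, to 20.4 ± 13.9 (log2 fold change -3.47, SE 0.63, adjusted p = 0.00684). Same-numbered control libraries come from one mouse number with and without A83-01, and with the mouse as a block the first call was narrowly lost (adjusted p = 0.0109). The 3 within-mouse log2 differences were -2.87, -2.71 and -2.93. Leaving out any library but control + A83-01 replicate 2 also ended that call (adjusted p = 0.0122 to 0.0407). The second was lost without any of the 3 control + vehicle libraries (0.0162 to 0.0359) or Smad2/3 cKO + vehicle replicates 1 and 2 (0.0124 and 0.0162).

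The membrane-anchored MMPs split. Mmp14 encodes MT1-MMP, a collagenase of the cell surface that also activates pro-MMP2, and Mmp15 encodes its relative MT2-MMP. For Mmp14 the values were 3402, 3893 and 4659 in control + vehicle, 1916, 2373, 2475 and 1207 in control + A83-01, 854, 787, 2047 and 1611 in Smad2/3 cKO + vehicle and 1082, 1365, 2202 and 2242 in Smad2/3 cKO + A83-01. No library of the other 3 groups reached the lowest control + vehicle library. Mmp14 fell in Smad2/3 cKO + vehicle from 3985 ± 634 (SD, n = 3) to 1325 ± 609 (SD, n = 4; limma, log2 fold change -1.69, SE 0.33, adjusted p = 0.00855). With A83-01 it was at 1993 ± 578 and was not called (log2 fold change -1.04, SE 0.26, adjusted p = 0.0514), with within-mouse log2 differences of -0.83, -0.71 and -0.91. The Mmp14 call with the deletion held without Smad2/3 cKO + vehicle replicate 3 and was lost without any 1 of the other 6 libraries (adjusted p = 0.0148 to 0.0349).

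Mmp15 went the other way. It measured 66.3, 116 and 279 in control + vehicle, 537, 530.1, 1735 and 1566 in control + A83-01, 3885, 1865, 1153 and 2613 in Smad2/3 cKO + vehicle and 2899, 3595, 1839 and 2181 in Smad2/3 cKO + A83-01. Every library with the inhibitor or the deletion exceeded all 3 control + vehicle libraries. Mmp15 rose in Smad2/3 cKO + vehicle from 154 ± 111 (SD, n = 3) to 2379 ± 1168 (SD, n = 4), 15.5-fold (limma, log2 fold change 4.05, SE 0.51, adjusted p = 0.00151), and the call held in 6 of the 7 fits that left out 1 library. Without control + vehicle replicate 2 its adjusted p was 0.0102. With A83-01 the mean was 1092 ± 649, 7.10-fold above vehicle, which was not called between the groups (log2 fold change 2.85, SE 0.60, adjusted p = 0.0299) and was called with the mouse as a block (log2 fold change 2.60, adjusted p = 0.00543). The within-mouse differences were 2.998, 2.18 and 2.63 on the log2 scale. Apart from Mmp23 (below), the other membrane-anchored MMPs tested were Mmp17 and Mmp24. These 2 had means of 24.6 and 13.4 over all libraries and were not called. Their log2 fold changes were -0.37 (adjusted p = 0.784) and -1.02 (adjusted p = 0.589) with A83-01 and -0.66 (adjusted p = 0.419) and -1.63 (adjusted p = 0.0772) with the deletion.

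**Figure D4:**
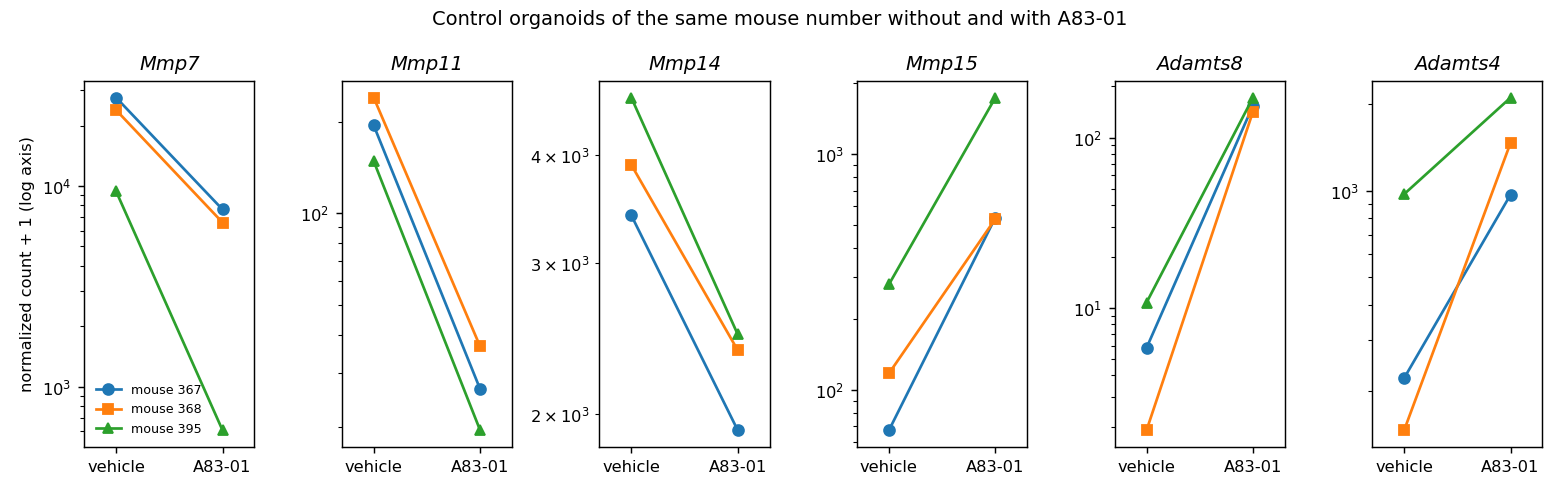
Normalized count plus 1 (log axes that differ between panels) of 6 metalloproteinase genes in control organoids with vehicle and with A83-01, with lines joining libraries of the same mouse number. All 3 lines go down for Mmp7, Mmp11 and Mmp14 and up for Mmp15, Adamts8 and Adamts4.

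The collagenase gene Mmp13, at the other end of the chromosome 9 cluster from Mmp7, was not called in any comparison. Its values were 178, 299.8 and 247 in control + vehicle, 223, 103, 35.3 and 27.4 in control + A83-01, 649.7, 105, 60.7 and 43.3 in Smad2/3 cKO + vehicle and 168, 381, 19.99 and 50.7 in Smad2/3 cKO + A83-01. They spread widely within the groups that had the inhibitor or the deletion and overlapped between all groups. Mmp23, a membrane-bound MMP of unusual structure, was measured at 559, 285 and 796 in control + vehicle, 449.6, 172, 999 and 989.7 in control + A83-01, 515, 395.1, 1295 and 842 in Smad2/3 cKO + vehicle and 686, 1053, 1732 and 1399 in Smad2/3 cKO + A83-01, and the groups overlap. Its log2 fold change was 0.065 with A83-01 (95% interval -1.397 to 1.53) and 0.45 with the deletion (-0.57 to 1.47).

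The main sheddases of the ADAM family overlapped between all groups, and none was called. Adam9, the most abundant ADAM transcript, measured 10548, 10344 and 10584 in control + vehicle, 6128, 12516, 9369.8 and 6123 in control + A83-01, 7024, 12759, 10401 and 7606 in Smad2/3 cKO + vehicle and 9453, 5876, 10933 and 7902 in Smad2/3 cKO + A83-01. Adam10, whose product cleaves Notch receptors and E-cadherin, gave 2579.8, 3224 and 3476 in control + vehicle, 1480.0, 4871, 3719 and 2114 in control + A83-01, 3234, 4377, 3629 and 3683 in Smad2/3 cKO + vehicle and 4357, 2549, 3745 and 3809.7 in Smad2/3 cKO + A83-01. Adam17, which encodes the enzyme that releases TNF and several EGF receptor ligands, gave 2008, 2083 and 2591 in control + vehicle, 1270.5, 2323, 2454 and 1861 in control + A83-01, 2128, 2060.5, 2336 and 2232 in Smad2/3 cKO + vehicle and 2331, 2061, 2424 and 2375 in Smad2/3 cKO + A83-01. The 4 groups overlap for each of these 3 genes. With the deletion the log2 fold changes were -0.19 (95% interval -0.66 to 0.28) for Adam9, 0.27 (-0.070 to 0.62) for Adam10 and -0.017 (-0.31 to 0.28) for Adam17. With A83-01 they were -0.37 (-0.96 to 0.23), -0.16 (-1.04 to 0.72) and -0.21 (-0.76 to 0.34). For Adam17 with the deletion the whole interval lies within the fold threshold of 1.4 in either direction.

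Adam15, an ADAM of epithelial and endothelial junctions, measured 855, 1183 and 1035 in control + vehicle, 916, 979, 1148 and 1461 in control + A83-01, 1219, 1026, 1276 and 986 in Smad2/3 cKO + vehicle and 1278, 1700.1, 1689 and 1643 in Smad2/3 cKO + A83-01. Its values in Smad2/3 cKO + A83-01 lay above all those of Smad2/3 cKO + vehicle by a small margin, without a call (limma, log2 fold change 0.48, SE 0.14, adjusted p = 0.993). Adam33, Adam28 and Adam8 were at intermediate levels. Adam28 was lower in all 4 control + A83-01 libraries (393.97, 462, 145 and 68.2) than in control + vehicle (831, 729 and 593), without a call (log2 fold change -1.78, SE 0.62, adjusted p = 0.135). Adam8 gave 445, 373.3, 819 and 448 in control + A83-01 and 129.8, 298, 213 and 269 in Smad2/3 cKO + A83-01, groups that do not overlap. Its adjusted p of 0.262 was the lowest of the 26 genes in that comparison. Adam33 measured 737, 1974 and 1422 in control + vehicle, 751, 886, 1185 and 1094 in control + A83-01, 1087, 1718, 1151 and 1215 in Smad2/3 cKO + vehicle and 1069.9, 780.4, 1072 and 1047 in Smad2/3 cKO + A83-01. It differed least between the vehicle groups, with a log2 fold change of -0.004 and a 95% interval of -0.71 to 0.70.

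Adam12 encodes meltrin alpha, which sheds heparin-binding EGF. It was the single ADAM transcript that was called, and its level was low: 163, 289 and 122 in control + vehicle, 1.03, 14.6, 0 and 0 in control + A83-01, 25.9, 0, 14.4 and 1.22 in Smad2/3 cKO + vehicle and 9.65, 1.59, 0 and 0 in Smad2/3 cKO + A83-01. The 3 control + vehicle libraries lay above the 12 others, 5 of which were at 0. Adam12 fell with A83-01 from 191 ± 87.1 (SD, n = 3) to 3.91 ± 7.15 (SD, n = 4; limma, log2 fold change -6.25, SE 0.98, adjusted p = 0.00963). This fold change depends on the pseudocount, since 2 of the 4 treated libraries are at 0, and ran from -8.13 with a pseudocount of 0.1 to -3.89 with 10. The call held without control + A83-01 replicate 2 and was lost without any 1 of the other 6 libraries (adjusted p = 0.0210 to 0.0563). It was also lost in 4 of 9 fits with other settings (highest adjusted p = 0.0320), among them the mouse as a block (0.0104). With the deletion Adam12 was at 10.4 ± 12.2 and was not called (log2 fold change -5.03, SE 1.09, adjusted p = 0.0142).

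The ADAMTS proteases that cut versican and other hyaluronan-binding proteoglycans were on the higher side with either intervention. All 5 of them that were tested (Adamts1, Adamts4, Adamts5, Adamts8 and Adamts9) had a log2 fold change above 0 in both comparisons with control + vehicle. Their median was 1.35 with A83-01 and 1.39 with the deletion, beside -0.01 and 0.01 for all genes tested. Of all genes tested, 49.4% and 50.7% had a log2 fold change above 0. With A83-01 1 of the 5 was called higher, beside 1.06% of all genes, and with the deletion 2, beside 4.09%.

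Adamts8, which encodes an angiostatic member of the family, was nearly absent in control + vehicle (4.81, 0.905 and 9.72 normalized counts) and gave 153, 141, 171 and 161 in control + A83-01, 222, 53.8, 25.6 and 115 in Smad2/3 cKO + vehicle and 261, 371.6, 72.2 and 138 in Smad2/3 cKO + A83-01. All 12 libraries with the inhibitor or the deletion were above the 3 control + vehicle libraries. Adamts8 rose with A83-01 from 5.14 ± 4.42 (SD, n = 3) to 157 ± 12.7 (SD, n = 4), 30.4-fold by the means (limma, log2 fold change 4.999, SE 0.58, adjusted p = 0.00286), and the call held with the mouse as a block (adjusted p = 0.00911). It was lost without control + vehicle replicate 1 (0.0172) or control + A83-01 replicate 3 or 4 (0.0127 and 0.0133). With the deletion it missed the threshold (log2 fold change 3.99, SE 0.84, adjusted p = 0.0126).

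Adamts1, known for versican cleavage at ovulation, measured 862, 1378 and 864 in control + vehicle, 1279.8, 3470.2, 3095 and 2262 in control + A83-01, 2501, 2289, 2474 and 2262 in Smad2/3 cKO + vehicle and 3325, 2724, 2363 and 2367 in Smad2/3 cKO + A83-01. Both cKO groups lay above the control + vehicle libraries, while control + A83-01 replicate 1 fell within their range. Adamts1 rose with the deletion from 1035 ± 297 (SD, n = 3) to 2381 ± 124 (SD, n = 4), 2.30-fold (limma, log2 fold change 1.24, SE 0.18, adjusted p = 0.00272), and of the 7 fits that left out 1 library the call was lost in that without control + vehicle replicate 1 (adjusted p = 0.0154). It was also lost without the variance trend (0.0116), a fit that left 1 of the 6 calls with the deletion (Mmp15). With A83-01 the log2 fold change was 1.23 (adjusted p = 0.0778).

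Adamts9, a versican-cleaving protease of the secretory pathway, gave 1159, 1274 and 1821 in control + vehicle, 1411, 2921, 4049 and 3059 in control + A83-01, 3064, 3658, 2730.4 and 5642 in Smad2/3 cKO + vehicle and 4632, 2199.8, 3366 and 4335 in Smad2/3 cKO + A83-01. Both cKO groups lay above the control + vehicle libraries, and control + A83-01 replicate 1 fell within their range. It rose with the deletion from 1418 ± 354 (SD, n = 3) to 3774 ± 1303 (SD, n = 4; limma, log2 fold change 1.38, SE 0.26, adjusted p = 0.00744). The call held without control + vehicle replicate 3 or Smad2/3 cKO + vehicle replicate 3 and was lost without any 1 of the other 5 libraries (adjusted p = 0.0113 to 0.0382). With A83-01 Adamts9 was at 2860.0 ± 1089 and was not called (log2 fold change 0.94, SE 0.34, adjusted p = 0.15).

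Adamts4, an aggrecanase, measured 221, 145 and 972 in control + vehicle, 967, 1467, 2111 and 1898 in control + A83-01, 2447, 1423, 1899 and 2486 in Smad2/3 cKO + vehicle and 2743, 2665, 2263 and 2509 in Smad2/3 cKO + A83-01. Control + vehicle replicate 3 stood apart from the 2 other libraries of its group and just above the lowest control + A83-01 library. The log2 fold changes of Adamts4, 2.29 (adjusted p = 0.0603) with A83-01 and 2.67 (adjusted p = 0.0119) with the deletion, did not pass the thresholds. Adamts5, the other main aggrecanase, was at 23.5 to 71.2 in control + vehicle, at 51.0 to 266 in control + A83-01, at 27.6 to 301 in Smad2/3 cKO + vehicle and at 46.7 to 361 in Smad2/3 cKO + A83-01, and the groups overlap.

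Adamts7, which cuts cartilage oligomeric matrix protein, and Adamts10, a fibrillin-associated protease, were on the lower side. Adamts7 measured 53.1, 44.8 and 107 in control + vehicle and at most 20.7 in the 12 other libraries. Adamts10 gave 137, 152 and 146 in control + vehicle and at most 117 elsewhere. Neither group of control + vehicle values overlaps the rest, and neither gene was called. With A83-01 the log2 fold changes were -3.24 (adjusted p = 0.0249) for Adamts7 and -2.43 (adjusted p = 0.0123) for Adamts10, and with the deletion -2.69 (adjusted p = 0.0137) and -1.70 (adjusted p = 0.0527).

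**Figure D5:**
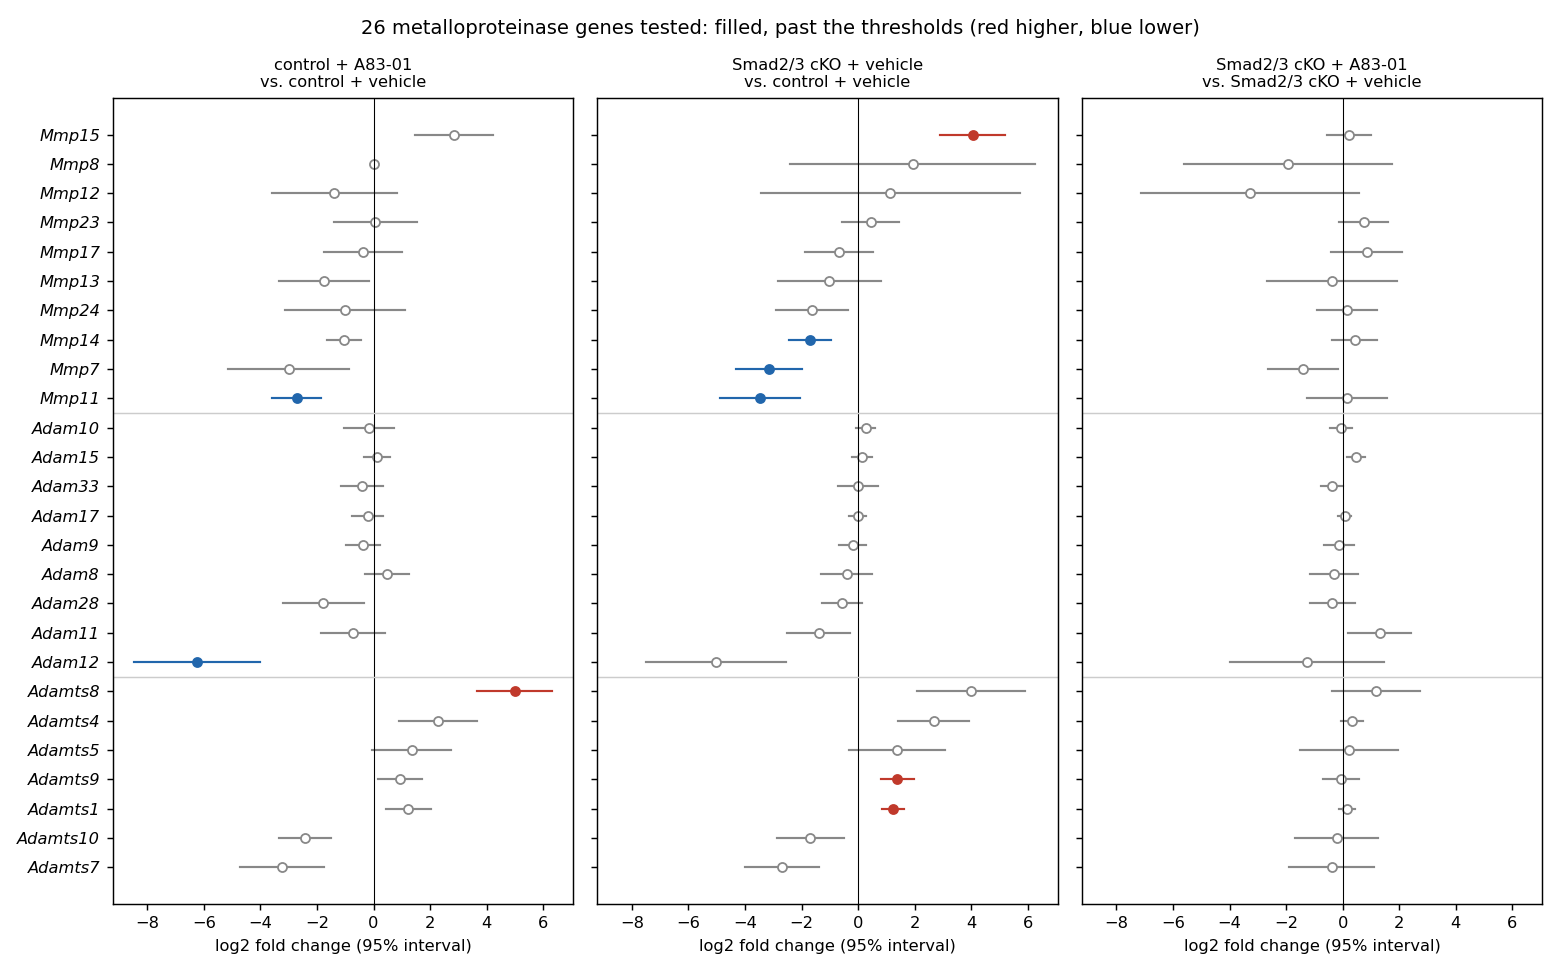
Log2 fold change (points) and 95% interval (lines) from limma of the 26 metalloproteinase genes tested, in 3 comparisons, with MMP, ADAM and ADAMTS genes in blocks from top to bottom. Filled points passed the thresholds: 3 genes with A83-01 in control organoids, 6 with the deletion and 0 with A83-01 in Smad2/3 cKO organoids.

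By ranges alone, 9 of the 26 genes had no overlap between control + A83-01 and control + vehicle, 2 higher (Adamts8 and Mmp15) and 7 lower (Adam12, Adam28, Adamts10, Adamts7, Mmp11, Mmp14 and Mmp7). Of all genes tested, 21.6% had no overlap there, 10.5% higher and 11.1% lower. Between Smad2/3 cKO + vehicle and control + vehicle this held for 13 of the 26 genes, where 30.7% of all genes tested had no overlap. Of the 13, 5 were higher (Adamts1, Adamts4, Adamts8, Adamts9 and Mmp15) and 8 lower (Adam11, Adam12, Adamts10, Adamts7, Mmp11, Mmp14, Mmp24 and Mmp7).

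In Smad2/3 cKO organoids A83-01 gave no call. Of the 26 genes 0 passed the thresholds, with limma adjusted p of at least 0.993 for each, and 3 had an unadjusted p below 0.05 (Adam11, Adam15 and Mmp7). The share of all genes called was 0.00%. Of the genes called against control + vehicle, Mmp15 had 2629 ± 781 with A83-01 and 2379 ± 1168 without (SD, n = 4 each), Mmp11 19.7 ± 10.3 and 20.4 ± 13.9, and Adamts1 2695 ± 453 and 2381 ± 124. Mmp7 was at 939 ± 679 and 2399 ± 1514, a log2 fold change of -1.404 with a 95% interval of -2.65 to -0.16. For Adamts1 the interval was -0.12 to 0.45 and for Mmp15 -0.55 to 1.02. The 4 others called in control comparisons had log2 fold changes of 1.18 for Adamts8, -1.26 for Adam12, 0.43 for Mmp14, which is opposite in sign to its fall with the deletion, and -0.054 for Adamts9. Adam15 was higher and Adam33 lower without overlap, where 1.86% and 1.05% of all genes were (2.91% in either direction).

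Between the genotypes under A83-01, Smad2/3 cKO + A83-01 against control + A83-01, 0 of the 26 genes were called by limma and 4 had an unadjusted p below 0.05 (Adam15, Adam8, Adamts4 and Mmp15). Of all genes 0.0153% were called. Mmp15 (log2 fold change 1.44, SE 0.43, adjusted p = 0.318) and Adamts4 (log2 fold change 0.72, SE 0.23, adjusted p = 0.351) were higher and Adam8 lower (log2 fold change -1.19, SE 0.33, adjusted p = 0.262) without overlap, beside 3.35% of all genes higher and 2.77% lower (6.12% together). The 4 Smad2/3 cKO + A83-01 mice are all of the lower number series, while control + A83-01 has 2 of each. With the series as a covariate Mmp15 was called (limma, log2 fold change 2.25, adjusted p = 0.00522), beside 0.444% of all genes. Mmp7 had a log2 fold change of -1.56 (adjusted p = 0.629), and its alternative fits ran from -3.19 to -1.55 (lowest adjusted p = 0.0273). Whether A83-01 acted differently in the 2 genotypes was tested as an interaction over all 15 libraries. No metalloproteinase gene was called (0 of 26; 10 had an unadjusted p below 0.05), and 0.551% of all genes were, 0.0995% higher and 0.452% lower. The lowest adjusted p values were those of Adamts8 (log2 fold change -3.82, SE 0.97, adjusted p = 0.0686), Mmp11 (log2 fold change 2.88, SE 0.78, adjusted p = 0.0882) and Mmp15 (log2 fold change -2.62, SE 0.73, adjusted p = 0.095). For no single gene of the 3 families was such an interaction shown.

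The 23 genes below the level for testing had means of 0.876 to 9.88, and 16 of them never exceeded 20 normalized counts in any library. Mmp10, a stromelysin, was just outside with a mean of 9.88 and Mmp24 just inside with 13.4. The gelatinases Mmp2 and Mmp9, the stromelysin Mmp3, the enamel protease Mmp20 and the procollagen propeptidases Adamts2 and Adamts14 were all in this low set. Mmp2, a substrate of MT1-MMP, measured 20.5, 66.5 and 6.01 in control + vehicle and at most 9.99 elsewhere. Mmp20 gave 4.86, 13.2 and 8.15 in control + vehicle and at most 1.28 elsewhere.

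The inhibitors of these proteases showed no call. Of the metalloproteinase inhibitors 3 were measured well enough to be tested, and 0 were called in any of the comparisons, with 0 and 1 at an unadjusted p below 0.05 with A83-01 and the deletion (limma, lowest adjusted p = 0.127, for Timp2 with the deletion). Timp1 gave 366, 296 and 722 in control + vehicle, 465, 304, 757 and 947 in control + A83-01, 536, 390.2, 502 and 708 in Smad2/3 cKO + vehicle and 446, 667, 658 and 766 in Smad2/3 cKO + A83-01. Timp2, which together with MT1-MMP activates pro-MMP2, gave 3879.8, 2176 and 1040.2 in control + vehicle, 4369, 2152, 1888 and 1875 in control + A83-01, 1033, 588, 1831 and 556 in Smad2/3 cKO + vehicle and 726, 2414, 1907 and 1436 in Smad2/3 cKO + A83-01. Timp3, the matrix-bound inhibitor of ADAM17, was low, at 41.9, 76.5 and 24.8 in control + vehicle, 15.1, 65.3, 18.7 and 0 in control + A83-01, 49.8, 8.76, 34.0 and 14.2 in Smad2/3 cKO + vehicle and 8.99, 18.04, 29.5 and 9.38 in Smad2/3 cKO + A83-01. For Timp1 and Timp3 every pair of groups overlaps. For Timp2 the groups set against each other here overlap, and the 4 control + A83-01 libraries lie above the 4 Smad2/3 cKO + vehicle libraries, a pair that was not tested. Reck, a membrane-anchored inhibitor, gave 5.89, 7.92 and 5.44 in control + vehicle, 7.68, 4.21, 0.924 and 10.7 in control + A83-01, 7.39, 0.963, 1.17 and 5.94 in Smad2/3 cKO + vehicle and 7.57, 2.64, 4.81 and 2.04 in Smad2/3 cKO + A83-01, and Timp4 was not analysed here.

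Genes that work with the metalloproteinases were taken from lists. Of 12 activators and plasmin system genes tested, 0 were called in each comparison, while 4 with A83-01 and 5 with the deletion had an unadjusted limma p below 0.05. Of 8 partners of ADAM10 and ADAM17, 0 were called with A83-01, with 2 at an unadjusted p below 0.05, and 2 fell with the deletion, where 3.25% of all genes did. Tspan15 and Tspan33 were higher without overlap with the deletion (log2 fold change 3.78 (adjusted p = 0.0379) and 0.68 (adjusted p = 0.0232)), without a call. The genes called were Rhbdf1, which encodes a rhomboid-like protein that guides ADAM17 to the cell surface, and Tspan17, a tetraspanin partner of ADAM10. Rhbdf1 went from 3850.0 ± 601 (SD, n = 3) to 2099.8 ± 358 (SD, n = 4; limma, log2 fold change -0.88, SE 0.17, adjusted p = 0.00881) and Tspan17 from 532 ± 35.3 to 262 ± 19.6 (log2 fold change -1.02, SE 0.17, adjusted p = 0.00453). The Rhbdf1 call was lost without any 1 of the 7 libraries (adjusted p = 0.0105 to 0.0385), and that of Tspan17 without any but Smad2/3 cKO + vehicle replicate 3 (0.0110 to 0.0241). Of 5 EGF family ligands that ADAM proteases release, 0 were called, with 2 and 3 at an unadjusted limma p below 0.05 in the same comparisons. Areg, the gene of amphiregulin, a ligand that ADAM17 sheds, gave 32.5, 55.9 and 74.9 in control + vehicle and 3.90, 3.81, 22.0 and 1.22 in Smad2/3 cKO + vehicle (log2 fold change -3.16, SE 0.81, adjusted p = 0.0276). Of 6 ADAMTS-like and related genes 0 were called, with 4 and 5 at an unadjusted p below 0.05, among them Adamtsl4, a fibrillin-binding relative without protease activity (log2 fold change -2.41 with the deletion, adjusted p = 0.0114). With the deletion the log2 fold change was above 0 for 3 of the 6 and below 0 for 3, with a median of 0.16.

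Several matrix substrates were called. Fn1 and Tnc fell with A83-01, and Fn1, Thbs1 and Tnc fell with the deletion, and of the list 0 rose in either, beside 0.911% and 3.25% of all genes called lower. Fn1, which encodes fibronectin, measured 1884, 3828 and 5624 in control + vehicle and at most 21.2 in any of the 12 other libraries. The log2 fold change of Fn1 was -8.49 (SE 0.54, adjusted p = 0.000299) with A83-01 and -9.06 (SE 0.91, adjusted p = 0.000556) with the deletion, and its interaction was called as well (log2 9.61, adjusted p = 0.000298). In Smad2/3 cKO + vehicle Fn1 was already near the floor. The interaction therefore cannot tell a different effect of A83-01 from a lack of room to fall. Tnc, which encodes tenascin C, was at 104, 229 and 104 in control + vehicle, at 0, 6.41, 0 and 0 in control + A83-01 and at 3.86, 0, 3.41 and 4.98 in Smad2/3 cKO + vehicle. Thbs1, the thrombospondin that can activate TGFβ, fell with the deletion from 5861 ± 1322 to 2265 ± 449 (log2 fold change -1.36, SE 0.20, adjusted p = 0.00283). The 3 Fn1 calls held whichever library was left out. Those of Thbs1 and Tnc with the deletion were lost without control + vehicle replicate 1 or 2 (adjusted p = 0.0125 to 0.0168) and that of Tnc with A83-01 without any but control + A83-01 replicate 2 (0.0111 to 0.0321). Vcan, which encodes versican, the substrate of several ADAMTS proteases, was at 0, 129 and 5.80 in control + vehicle and at most 8.13 elsewhere, so its level there rests on 1 library.

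Known readouts of the SMAD pathway were read in the same libraries. Of 9 tested, 3 fell with A83-01 (Ccn2, Pmepa1 and Smad7) and 3 with the deletion (Ccn2, Pmepa1 and Tgif1), beside 0.911% and 3.25% of all genes called lower. Unadjusted p was below 0.05 for 6 and for all 9 of them. Readouts did not all go down: with the deletion Tgfbi and Bambi were higher without overlap (log2 fold change 3.41 (adjusted p = 0.0134) and 1.01 (adjusted p = 0.102)), without a call. Pmepa1, a feedback inhibitor of the pathway, measured 1327, 903 and 821 in control + vehicle, 60.1, 42.1, 28.4 and 55.5 in control + A83-01, 32.0, 178, 64.7 and 16.3 in Smad2/3 cKO + vehicle and 2.46, 3.86, 5.20 and 17.2 in Smad2/3 cKO + A83-01. Its libraries in control + vehicle were above all others, and replicate 2 was the highest of the Smad2/3 cKO + vehicle libraries. Smad7, the inhibitory SMAD, gave 191, 194 and 270.3 in control + vehicle, 10.4, 14.8, 14.9 and 20.2 in control + A83-01, 13.8, 55.5, 90.4 and 16.5 in Smad2/3 cKO + vehicle and 19.0, 6.80, 8.60 and 4.70 in Smad2/3 cKO + A83-01. Replicates 2 and 3 of Smad2/3 cKO + vehicle had more Smad7 than every library with A83-01, and with the deletion Smad7 was not called (log2 fold change -2.67, SE 0.64, adjusted p = 0.0204). With A83-01 the Pmepa1 call held whichever library was left out, and those of Ccn2 and Smad7 were lost without control + vehicle replicate 1 or 2 (adjusted p = 0.0127 to 0.0169). With the deletion Tgif1 kept its call in every such fit, Ccn2 lost it without control + vehicle replicate 1 or 2 (0.0182 and 0.0169), and Pmepa1 without any of the control + vehicle libraries or Smad2/3 cKO + vehicle replicate 1 (0.0108 to 0.0237).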

How the data were processed

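RNA of 15 organoid libraries was sequenced after low-input amplification. The authors estimated counts with Salmon 1.4.0 and scaled them with DESeq2 1.32.0. Whether the scaling used a single factor per sample or also factors that differ between genes is not known. The deposited values are such normalized counts (a signal, not raw counts), so no count test was applied. The tool versions come from the submitters' processing notes. Positions are those of GENCODE M21 (GRCm38) and promoter windows those of RefSeq (GRCm38.p6), whereas the authors used GRCm39. All 49 genes had a position.

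Genes with a mean of at least 10 over the 15 libraries (13066) were tested on log2(normalized count + 1) with limma 3.58.1 in R 4.3.3 (empirical Bayes with trend), each comparison on its own 2 groups and the interaction on all 15 libraries. Fold changes are on that scale, which understates the change of low genes. P-values were adjusted after Benjamini and Hochberg over all genes tested, and a call required 0.01 at most and 1.4-fold or more in either direction. Shares of all genes at an unadjusted p below 0.05 were not counted, so counts at that level have no background here. Any gene of the 3 families could be named by its level. Values of every library were due for genes called in any comparison, for the 10 with the highest mean and for the inhibitors, and other genes came from lists where called. Further genes given in full (such as Mmp13, Adam28, Adamts7, Adamts10, Mmp23), and Areg, Adamtsl4, Vcan and the cell type markers, were chosen after their values were seen. Some genes of the lists are not reported here. The members and lists were chosen with earlier results of these data known. The steps were tested on simulated data. Tables and plots were made with Python 3.11.15, pandas 2.3.3, numpy 2.4.6 and matplotlib 3.10.9.

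Between 5.59% and 12.8% of low values were whole multiples of a unit (tolerance 0.01), so reads were not recovered and the read depth of each library is unknown. Control libraries with and without A83-01 share mice 367, 368 and 395 as replicates 1 to 3. The deviations of same-numbered libraries from their group means correlated at 0.354 or more (mean 0.395, other pairs -0.133). Taking deviations from group means itself lowers the mean of the other pairs. Control + vehicle replicate 3 (mouse 395) correlated nearly as well with control + A83-01 replicate 4 (mouse 396, r = 0.347). The pairing thus rests on the labels, and for that library r does not tell the mouse from the number series. The comparison itself was fitted without the mouse, and values with the mouse as a block are given where they change a call. In the labels mouse number 367 appears in both genotypes. Alternatives were other pseudocounts, no filter on low values, other normalizations and thresholds, the replicate block, the mouse number series as covariate, 1 fit of all groups and each library left out.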

Additional observations from a re-analysis of the deposited data

Results flagged for a closer look

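In 10 of the 75 groups of 4 libraries examined, 1 library lay far from the other 3 by Dixon's test, where chance gives about 1 in 20. For Mmp8 and Mmp12 a distant library was bound to be found, since a single library brought them past the filter on low values. Without these genes the count was 8 of 72. Smad2/3 cKO + vehicle replicate 2 stood high for Mmp8 (211 normalized counts) and Mmp12 (634), the 2 genes described with the leukocyte markers of that library. Smad2/3 cKO + vehicle replicate 1 stood high for Mmp13 (649.7) and replicate 4 for Adamts7 (20.7). In Smad2/3 cKO + A83-01, replicate 1 was low for Adam15 (1278) and high for Adam12 (9.65), and replicate 2 was low for Adam33 (780.4) and high for Adamts10 (117). In control + A83-01, replicate 3 was high for Adam8 (819) and replicate 2 for Adam12 (14.6). The causes were not tested.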

How the results depend on the processing

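For the 9 calls (8 genes) 152 alternative fits were made, of which 93 kept the call, 59 (38.8%) lost it and 0 changed sign. The same genes gave 595 fits in comparisons where they were not called, of which 13 gained a call and 14 changed sign without one. For A83-01 in Smad2/3 cKO organoids the signs changed with the number series for Mmp11 (-0.094 on the log2 scale), Adamts9 (0.061) and Mmp15 (-0.082), and with 1 library left out the values ran from -0.39 to 0.53, -0.19 to 0.17 and -0.068 to 0.52. Between genotypes under A83-01, leaving out 1 library gave -0.12 to 0.36 for Adamts1, -0.79 to 0.86 for Adam12 and -0.18 to 0.60 for Adamts8. With A83-01 in control organoids the count of 3 became 6 at an adjusted p below 0.05, 6 with the mouse number series as covariate and 7 with all 4 groups in 1 fit. Leaving out 1 library gave 0 to 4. With the deletion the count of 6 became 1 without the trend and 10 at an adjusted p below 0.05, and leaving out 1 library gave 1 to 6. Between genotypes under A83-01 the count of 0 became 1 with the number series as covariate (Mmp15, log2 fold change 2.25, adjusted p = 0.00522), and for the interaction leaving out 1 library gave 0 to 1. The causes were not tested. The counts over all genes moved in the same fits. The 257 calls with A83-01 became 892 at 0.05, 366 with the number series and 642 in 1 fit. They became 146 without the filter and 37 to 218 with 1 library left out. The 958 with the deletion became 2362 at 0.05, 440 without the trend, 186 with the replicate block and 262 to 952 with 1 library left out. The 2 between genotypes under A83-01 became 58 with the number series, and the 72 of the interaction became 208 at 0.05 and 39 to 77 with 1 library left out.

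With the replicate block the count was 2 with A83-01 (Adamts8 and Mmp15), where the pairing is by the mouse number of the labels. Over all genes 185 (1.42%) were called in that fit. In the other comparisons the replicate numbers do not follow the mouse: the Smad2/3 cKO groups share 1 mouse number under different replicate numbers (r = 0.355), and the vehicle groups share 1 under replicate 1. The lowest correlation of same-numbered libraries was 0.0153 between the vehicle groups, -0.166 between the Smad2/3 cKO groups and -0.171 between the A83-01 groups. There the block gave 1 with the deletion (Mmp7), beside 186 of all genes (1.42%), and 0 in the others.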
